A study of Homo sapiens with 8 samples.

Results

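The data concern 10 genes that code for the neuronal cytoskeleton and for proteins of neurite outgrowth, chosen by symbol from a table of normalized counts: NEFL, NEFM, NEFH, INA and PRPH for neuronal intermediate filaments, TUBB3, MAP2, DCX and STMN2 for tubulin and proteins that act on it, and GAP43 for the growth cone. Each symbol matched 1 of the 47591 entries of the table, and all 10 passed the filter on low values, as did 18947 genes in all. In the line with PRPF40B targeted, the mRNAs of NEFM, NEFH and INA were between 2.51-fold and 4.29-fold lower than in either control line, while that of GAP43 was 7.58-fold higher than in the scramble line and 6.81-fold higher than in the unedited line. NEFL and DCX were lower against the scramble line by 1.99-fold and 2.51-fold and were not called against the unedited line. TUBB3 was 1.66-fold lower than in the unedited line. Its fold of 1.44 against the scramble line and those of MAP2 against both lines, about 1.40, missed the threshold of 1.5. STMN2 differed from the scramble line by a fold of 1.03, with overlapping libraries.

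Neurons are shaped by microtubules and by intermediate filaments. Neurofilaments are built from a light, a medium and a heavy subunit together with α-internexin or peripherin, they fill the axon and set its caliber, and the neurofilament subunits are widely used as markers of neuronal maturation. Microtubules of young neurons are rich in βIII-tubulin, MAP2 and doublecortin bind and stabilize them, stathmin-2 keeps tubulin dynamic at the growing tip, and GAP43 is a membrane-attached phosphoprotein of the growth cone that is induced when axons extend or regenerate.

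RNA-seq of polyadenylated RNA was made from SH-SY5Y, a human neuroblastoma line with features of immature sympathetic neurons. The groups were 3 libraries of G2, in which a CRISPR/Cas9 guide targeted PRPF40B, a splicing factor; 3 libraries of SCR, which received the same machinery with a scrambled guide; and 2 libraries of WT, which was not edited. The study's methods state puromycin selection for the edited cells, puromycin in the later culture of G2 and SCR but not of WT, and colonies grown by limiting dilution, so each line is 1 derivative of SH-SY5Y and a difference between lines cannot be told apart from a difference between colonies. The labels call the libraries biological replicates without naming separate cultures, so the p-values measure the spread between these libraries. In bulk RNA, fewer cells of a type and less RNA per cell cannot be told apart.

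PRPF40B itself had normalized counts of 840.2, 840.9 and 918 in the 3 G2 libraries, 1686, 1672 and 1669 in SCR, and 1972 and 1668 in WT. It was lower in all 3 G2 libraries, with a log2 fold change of -0.95 ± 0.08 (SE) against SCR. The library totals recovered from the table ran from 59804395 to 81080747 counts. Ribosomal RNA genes took 0.384% to 0.587% of the values in G2 and SCR and 4.75% to 4.96% in WT. The markers of sympathetic neuroblasts did not keep 1 level: all 11 were measured, and their summed normalized counts ran from 107414 to 116838 in G2, from 209452 to 223880 in SCR and from 238914 to 253113 in WT. Of the 11, 9 were called lower in G2 against each control line, beside 11.8% of all tested genes against SCR and 12.2% against WT. GATA3 went the other way, at log2 differences of 0.37 against SCR and 0.28 against WT. Its G2 libraries all lay above all control libraries, but it missed the fold threshold. TH, the rate-limiting enzyme of catecholamine synthesis, was near the floor, at a mean of 1.88 in G2 and 16.9 in WT. Its mean over all libraries was 10.2, so it passed the filter on low values only through the controls. Its lower calls therefore add no support. Of 11 mesenchymal markers 9 were tested and 8 were called higher in G2 against each control, beside 15.1% and 17.7% of all tested genes. PRRX1 and WWTR1 passed the filter on low values only through G2. Their means were 30.5 and 57.5 in G2, 0 and 1.90 in SCR, and 0 for both in WT, so their higher calls add no support. TWIST1, the tested marker not called, had log2 differences of -0.39 and -0.34 in G2 against SCR and WT. The summed level of the 11 was 240049 to 245853 in G2, 111064 to 118455 in SCR and 80845 to 93085 in WT, most of it from VIM, while FN1 and TWIST2 had means under 10. The Schwann cell marker SOX10 was at 0 in every library. The part of these cell states in the values of the 10 genes was not tested.

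A gene counted as called when limma, run on log2(normalized count + 1), gave a fold of 1.5 or more with an unadjusted p no higher than 0.05, which are the thresholds of the study. The Benjamini-Hochberg adjusted p over all 18947 genes is given beside. In G2 against SCR, 2 of the 10 genes, GAP43 and PRPH, were called higher, where 15.1% of all tested genes were, and 5, NEFL, NEFM, NEFH, INA and DCX, were called lower, where 11.8% were. In G2 against WT, GAP43 was called higher and 4, NEFM, NEFH, INA and TUBB3, lower, against 17.7% and 12.2% of all genes. In SCR against WT, 2, NEFL and DCX, were called higher and none lower, against 10.7% and 5.63% of all genes; among the 10 genes TUBB3 was the only one with a negative difference at an unadjusted p under 0.05 in limma. All 3 G2 libraries lay above all 5 control libraries for 1 of the 10 genes, GAP43, as for 22.8% of all genes, and below them for 6, NEFL, NEFM, NEFH, INA, MAP2 and TUBB3, as for 19.7% of all genes. For each of these 7 the exact two-sided permutation test of 3 against 5 libraries gave p = 0.0357, the smallest value it can give here. The separation of the libraries fixes this value, so it adds no support beyond the separation itself. The test also treats SCR and WT libraries as exchangeable, although NEFL and DCX were called between these lines. The median log2 fold change of the 10 genes was -0.76 in G2 against SCR and -0.48 in G2 against WT, beside -0.01 and 0.00 over all genes. The 2 G2 comparisons share their G2 libraries. Scaling every library to the same total moved the median of all genes by -0.09, 0.18 and 0.27 in G2/SCR, G2/WT and SCR/WT, and the members called higher and lower then numbered 1 and 6, 2 and 3, and 4 and 0. Over all genes, the same scaling turned 2858 higher and 2230 lower calls in G2/SCR into 2485 and 2743, so that lower calls became the more frequent, 3353 higher and 2304 lower calls in G2/WT into 4515 and 1448, and 2031 and 1066 in SCR/WT into 3959 and 411.

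**Figure D1:**
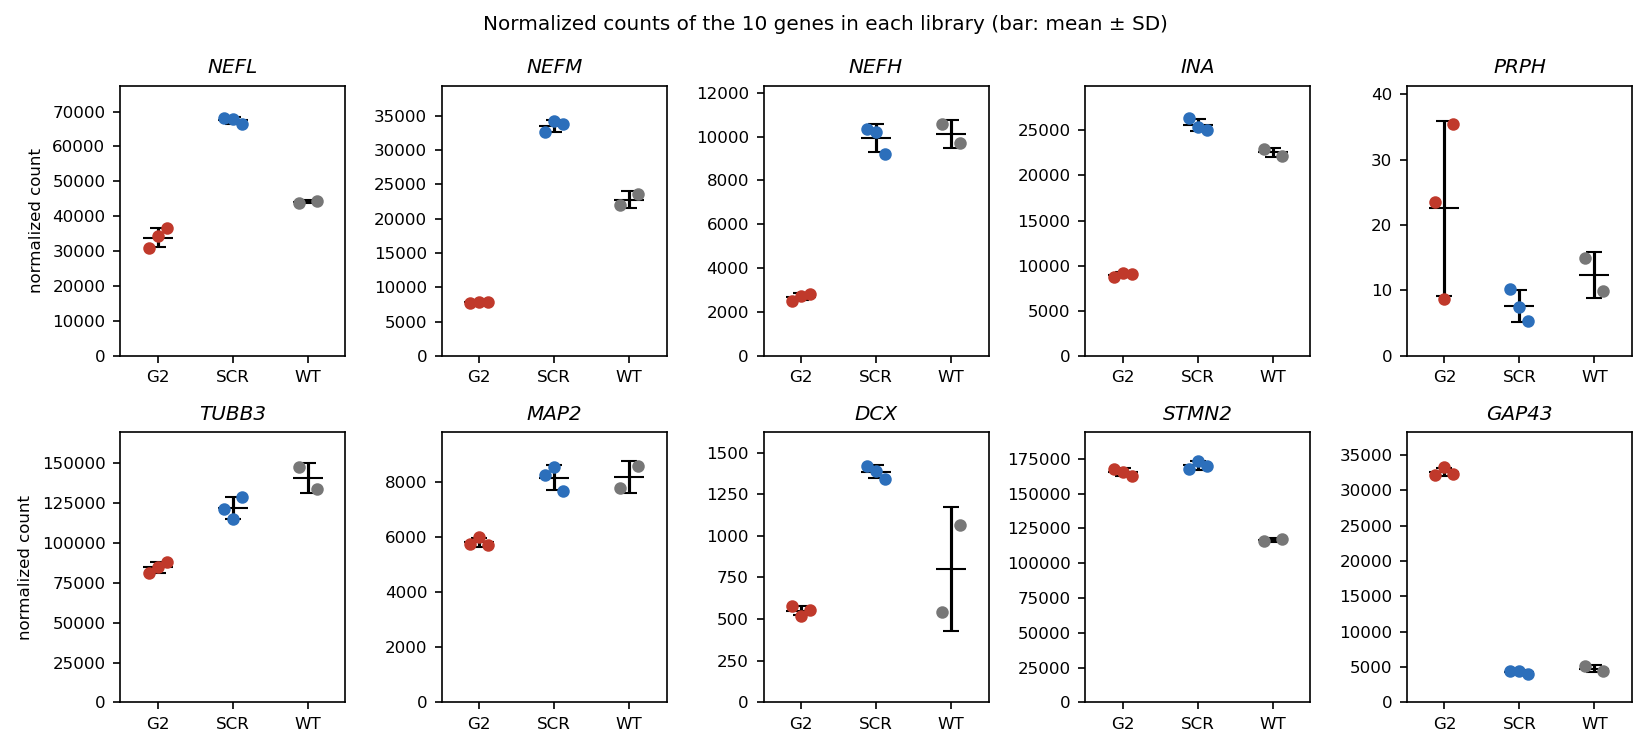
Normalized counts of the 10 genes, 1 panel per gene, with 1 point per library of G2 (red), SCR (blue) and WT (grey) and a bar for the mean ± SD, on linear axes that start at 0. GAP43 stands at 32129 or more in the G2 libraries and at 5118 or less in the others, the red points of NEFL, NEFM, NEFH, INA, TUBB3 and MAP2 lie below all others, and for STMN2 the highest red point lies among the SCR points and the other two lie below them.

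The light neurofilament subunit NEFL, on which the polymer is built, had normalized counts of 31000.2, 34217 and 36537 in G2, 68055, 68005 and 66424 in SCR, and 43924 and 44469 in WT. Each G2 library was below each control library, and the SCR libraries were above both WT libraries. On the log2 scale NEFL was at -0.996 ± 0.059 in G2 against SCR (fold 1.99, adjusted p = 4.7e-08, limma). Against WT the difference was -0.39 ± 0.07 (adjusted p = 0.00039, limma), which did not reach a fold of 1.5. SCR was 1.53-fold above WT (log2 0.61 ± 0.07, adjusted p = 3.4e-05, limma), just past the threshold.

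NEFM, the medium subunit with a long phosphorylated tail, gave the lowest ratio to the controls of the filament genes in G2/SCR. Its normalized counts were 7670.3, 7884 and 7912 in G2, 32591, 34319 and 33771 in SCR, and 21941 and 23631 in WT. The 3 G2 values were within a narrow band far under all 5 control values. The log2 differences were -2.10 ± 0.05 against SCR (fold 4.29, adjusted p = 2.4e-11, limma) and -1.54 ± 0.06 against WT (fold 2.91, adjusted p = 6.3e-10, limma). SCR was above WT by 0.56 ± 0.06, a fold of 1.47 that stayed under the threshold. It passed the threshold at 0.61 without WT replicate 2, at 0.84 with equal totals and at 0.61 with scaling by the upper quartile.

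NEFH, the heavy subunit that is added late in axon maturation, had normalized counts of 2518, 2752 and 2844 in G2, 10347, 10221 and 9201 in SCR, and 10588 and 9685 in WT. The SCR and WT values overlapped, and G2 was below both by about the same amount, -1.87 ± 0.07 (fold 3.67, adjusted p = 6.3e-10, limma) and -1.91 ± 0.08 (fold 3.75, adjusted p = 1.5e-09, limma) on the log2 scale.

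INA codes for α-internexin, the subunit that young neurons express before the triplet. Its normalized counts were 8702, 9201 and 9057 in G2, 26303, 25409 and 25064 in SCR, and 22923 and 22174 in WT. On the log2 scale the difference of G2 from SCR was -1.51 ± 0.05 (fold 2.85, adjusted p = 2.1e-10, limma), and that from WT was -1.33 ± 0.05 (fold 2.51, adjusted p = 1.7e-09, limma). The 2 control lines differed by 0.18 ± 0.05, with every SCR value above every WT value.

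PRPH, peripherin, the filament protein of peripheral and sympathetic neurons, was barely detected. Its normalized counts were 23.5, 8.76 and 35.5 in G2, 10.2, 7.51 and 5.29 in SCR, and 14.9 and 9.93 in WT, from 7 to 33 recovered counts per library. The second G2 library lay among the controls, so the groups overlapped. The value of 1.29 ± 0.59 (log2) against SCR met the thresholds with an unadjusted p of 0.049 in limma, but its adjusted p was 0.089, and 12 of its 22 alternative settings did not call it. Among these were the fits without G2 replicate 1 (1.16), G2 replicate 3 (0.88), SCR replicate 2 (1.29), SCR replicate 3 (1.08) and WT replicate 1 (1.29). Its entry in the table overlaps that of RHEBL1, a gene of higher level whose log2 differences were -0.69 against SCR and -0.58 against WT, and the strand setting of the counting is not given in the sources used here.

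Compared per length, the filament genes also shifted relative to each other. The normalized counts of the 5 genes were divided by the merged exon length in GENCODE 44 and expressed as shares of their sum, which no scaling of libraries alters. NEFL made up 59.0%, 60.3% and 61.8% of the sum in the G2 libraries, 46.6%, 46.4% and 46.5% in SCR, and 41.2% and 41.5% in WT. NEFM made up 15.8%, 15.0% and 14.5% in G2, 24.2%, 25.4% and 25.6% in SCR, and 22.3% and 23.9% in WT. The groups did not overlap for either gene. The mean share of NEFL was 15.9 percentage points higher in G2 than in the controls, and the differences for NEFM, NEFH and INA were -9.15, -3.20 and -3.62 points. For each of the 5 shares, PRPH included, the exact two-sided permutation test gave p = 0.0357, the smallest value possible. The lack of overlap fixes this value, and the 5 shares are parts of the same sum, so they are not independent results. The level of PRPH overlapped the controls. Its share was 0.0232% in the second G2 library against 0.0211% in the first WT library, with a smaller sum in G2. NEFM per NEFL was 0.251 ± 0.017 (SD, n = 3) in G2, 0.539 ± 0.017 (n = 3) in SCR and 0.559 ± 0.024 (n = 2) in WT, so this ratio was nearly the same in the control lines although the level of both genes differed between them. NEFH per NEFL was 0.0829 ± 0.0018 in G2, 0.153 ± 0.008 in SCR and 0.238 ± 0.017 in WT, and here the control lines did not overlap either.

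The summed per-length level of the 5 neuronal filament genes was 14246 ± 848 normalized counts per kb in G2, 36853 ± 497 in SCR and 27098 ± 94.0 in WT. Vimentin, the filament protein of mesenchymal cells and of neural precursors, was at 41428 ± 446 per kb in G2, 16460 ± 554 in SCR and 11434 ± 1256 in WT, so that VIM stood at 2.91 ± 0.14 times the neuronal filament sum in G2 and at 0.447 ± 0.021 and 0.422 ± 0.048 times in SCR and WT. With VIM and NES in the pool, NEFL held 14.9% of the sum in G2 and 31.4% and 28.1% in SCR and WT, the opposite order to its share of the 5 genes. The merged exon length of VIM is 5176 bases against 2666 for its longest transcript. The size of the VIM ratio and of the shares in this pool therefore depends on the length used. Nestin, the filament protein of neural progenitors, was at 1977 ± 60.5 per kb in G2, 1219 ± 10.01 in SCR and 1385 ± 35.2 in WT.

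**Figure D2:**
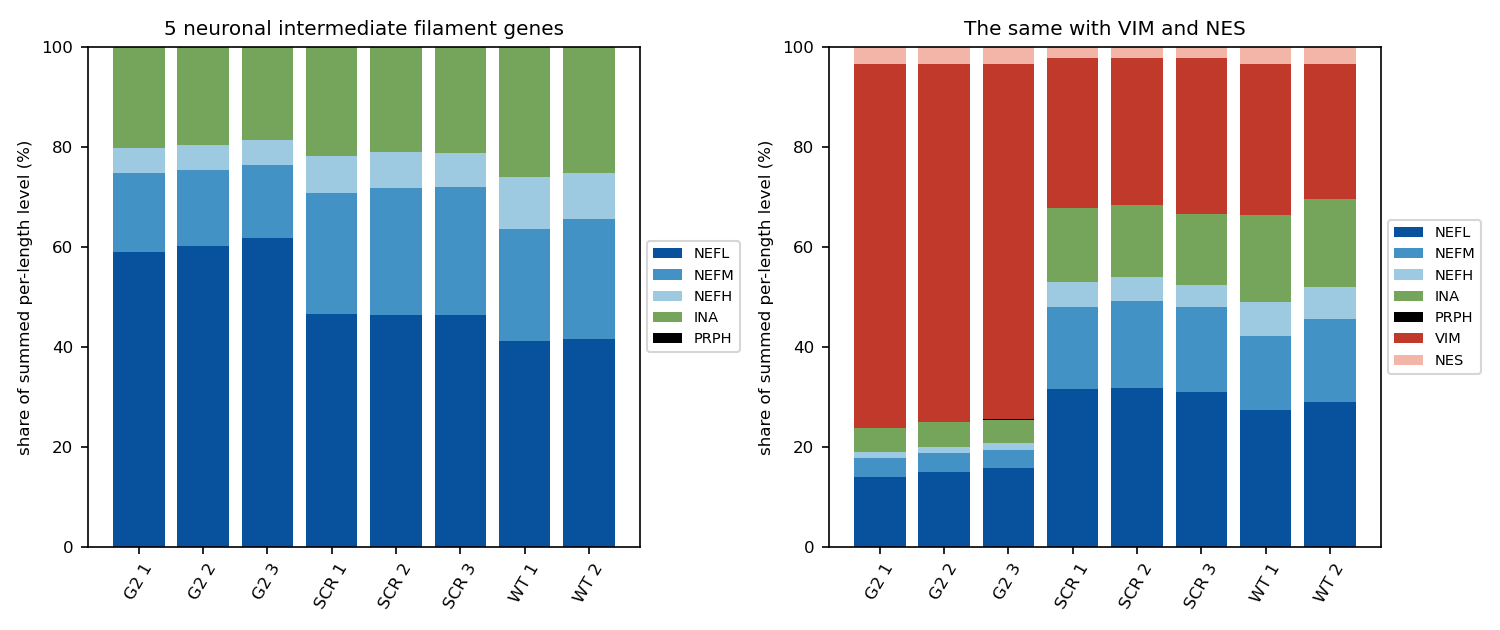
Stacked bars give, for each library, the share in percent of each gene in the summed per-length level of the 5 neuronal intermediate filament genes (left) and of the same genes with VIM and NES (right). On the left NEFL takes 59.0% or more in G2 and 46.6% or less in SCR and WT, and on the right VIM takes 71.9% on average in G2, 30.2% in SCR and 28.6% in WT.

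The promoters are shown because INA and GAP43 moved in opposite directions and PRPH was nearly silent, and because the reference lists a single start for each of these 3 genes. The sequences are the 250 bases before the start from RefSeq on GRCh38.p14, all on the plus strand. They lie at chr10:103276888-103277137 for INA, chr12:49294897-49295146 for PRPH and chr3:115623260-115623509 for GAP43. Capitals mark TATAAA, the TATA box, GGGCGG, the core of a GC box, CAGCTG and CATCTG, which are E boxes, and TGACGTCA, the cAMP response element, read on both strands; no match overlapped a match of another motif.
INA: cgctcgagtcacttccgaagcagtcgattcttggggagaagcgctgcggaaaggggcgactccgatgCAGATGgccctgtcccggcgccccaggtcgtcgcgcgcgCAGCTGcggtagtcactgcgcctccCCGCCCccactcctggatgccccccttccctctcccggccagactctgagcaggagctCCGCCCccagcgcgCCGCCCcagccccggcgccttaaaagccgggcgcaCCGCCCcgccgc
PRPH: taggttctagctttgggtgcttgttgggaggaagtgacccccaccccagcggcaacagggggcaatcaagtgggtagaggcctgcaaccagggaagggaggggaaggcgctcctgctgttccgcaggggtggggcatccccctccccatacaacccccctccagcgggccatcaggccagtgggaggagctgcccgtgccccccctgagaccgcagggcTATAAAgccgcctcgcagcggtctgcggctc
GAP43: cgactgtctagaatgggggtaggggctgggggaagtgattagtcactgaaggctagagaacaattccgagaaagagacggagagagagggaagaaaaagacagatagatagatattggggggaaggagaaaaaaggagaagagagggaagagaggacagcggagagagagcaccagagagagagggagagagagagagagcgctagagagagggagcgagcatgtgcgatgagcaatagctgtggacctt

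The INA window held 4 matches to GGGCGG, 1 to CAGCTG and 1 to CATCTG, and its GC content was 72.8%. The PRPH window held 1 TATAAA near its end, at a GC content of 66.8%, and the GAP43 window, at 51.6%, held none of the 5 motifs. Windows were at hand for 6 of the 10 genes, 11 windows in all, with 3 for MAP2, 2 for TUBB3 and 3 for DCX. GGGCGG was in 2 of the 11, those of INA and of the downstream start of TUBB3, where 42.6% of all 35116 windows held it. TATAAA was in 2, those of PRPH and of 1 start of DCX, against 10.7% of all windows, CATCTG in 2 against 12.2%, CAGCTG in 1 against 13.99%, and TGACGTCA in none against 1.65%. NEFH, NEFL, NEFM and STMN2 had no window. The entry for GAP43 in the table of counts spans 403 kb, from 115317999 to 115721487 on chromosome 3, against 98.0 kb in GENCODE, so its counts may include RNA from upstream of this start.

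TUBB3, the neuronal βIII-tubulin and a common marker of neuronal identity, had normalized counts of 81019, 85061 and 87934 in G2, 121406, 114820 and 128957 in SCR, and 147502 and 133806 in WT. The 3 lines did not overlap, with G2 lowest and WT highest. Against WT the log2 difference of TUBB3 was -0.73 ± 0.07 (fold 1.66, adjusted p = 2.6e-06, limma). Against SCR the value was -0.52 ± 0.06 (fold 1.44, adjusted p = 1.7e-05, limma), which missed the fold threshold. With libraries scaled to the same total, the value against SCR passed it at -0.61 and that against WT missed it at -0.55.

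TUBB3 was also a smaller part of β-tubulin mRNA in G2. Per length, it made up 4.34% ± 0.12 (SD, n = 3) of the sum of TUBB, TUBB2A, TUBB2B, TUBB3, TUBB4A, TUBB4B and TUBB6 in G2, 7.06% ± 0.31 (n = 3) in SCR and 5.38% ± 0.0024 (n = 2) in WT. The difference of G2 from the 5 control libraries was -2.05 points (exact two-sided permutation test, p = 0.0357, the smallest possible, which the lack of overlap fixes). The entry for TUBB spans 271 kb in the table against 8.10 kb in GENCODE and overlaps 17 other entries, so the pool was also formed without it. TUBB3 then made up 9.22%, 9.06% and 9.12% in G2, 14.6%, 14.5% and 15.1% in SCR, and 11.7% and 11.9% in WT, again with no overlap.

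Among the other isotypes of that smaller pool, TUBB6, which is found mainly outside neurons, rose from 2.14% ± 0.04 in SCR and 1.45% ± 0.10 in WT to 3.86% ± 0.17 in G2, and TUBB4A, a brain isotype, fell from 0.938% ± 0.015 and 0.4999% ± 0.0335 to 0.296% ± 0.016. As levels, TUBB6 was higher in G2 by 1.02 ± 0.08 (log2) against SCR and 1.06 ± 0.09 against WT, and TUBB4A had values of -1.49 ± 0.08 and -1.11 ± 0.08 (adjusted p of 1.1e-06 or less for all 4, limma). TUBB2A, TUBB2B and TUBB4B were called in neither G2 comparison. The log2 values of TUBB were 0.19 and -0.48, also short of the fold. These genes are close in sequence, the treatment of reads that match several genes is not given in the sources used here, and the values may be split between them.

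**Figure D3:**
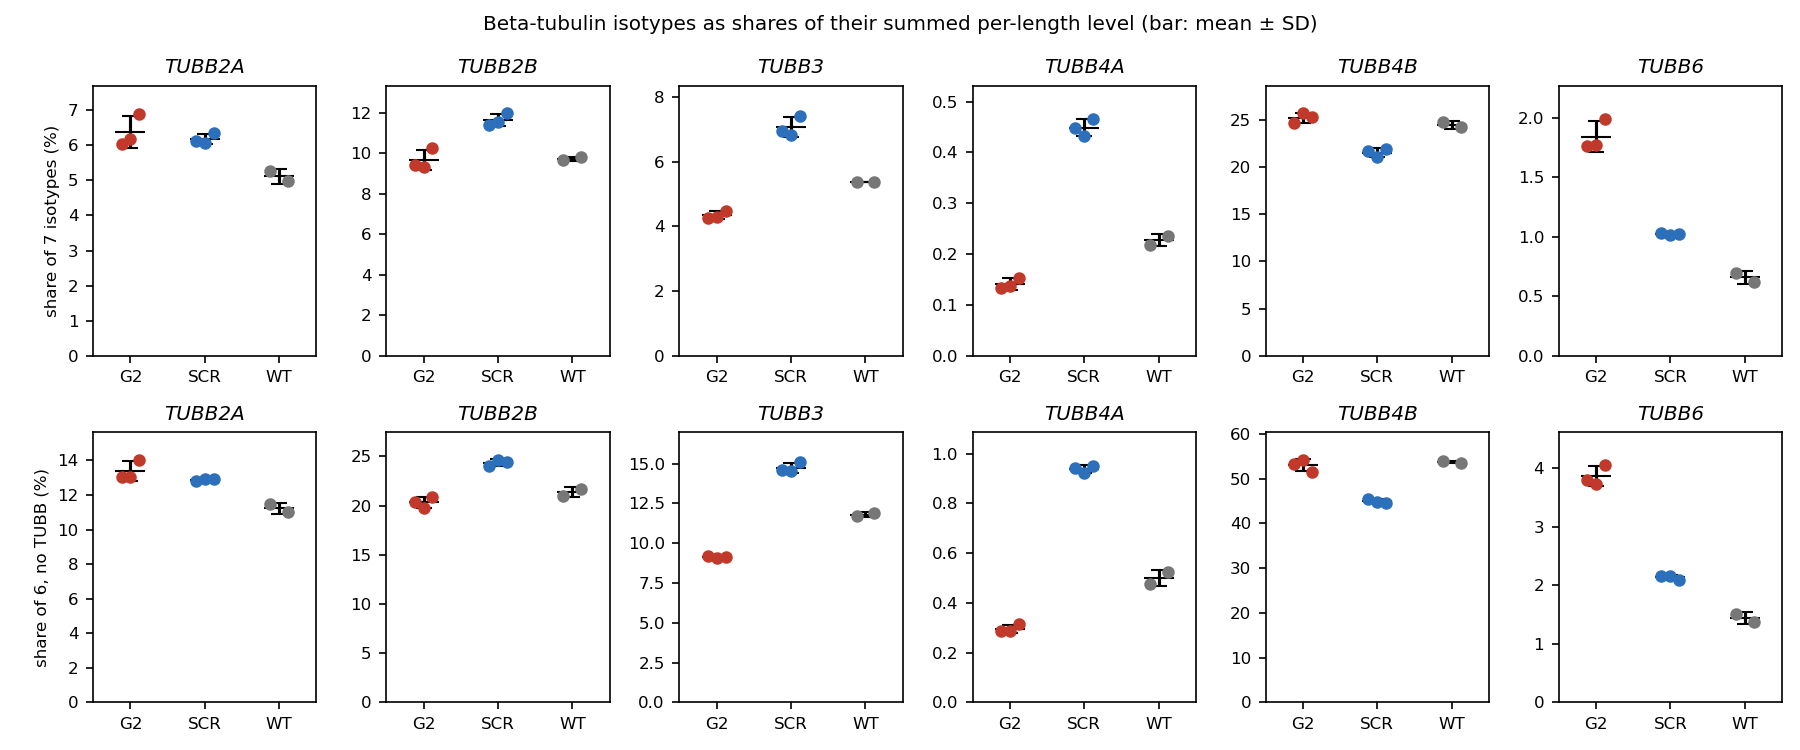
Shares in percent of 6 β-tubulin isotypes in the summed per-length level of 7 isotypes (top) and of the 6 without TUBB (bottom), 1 point per library, with bars for the mean ± SD. TUBB3 and TUBB4A are lowest and TUBB6 is highest in G2 in both rows, while the points of TUBB4B in G2 lie near or among those of WT.

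MAP2, which binds along dendritic microtubules, had normalized counts of 5748, 6014 and 5713 in G2, 8277, 8564 and 7665 in SCR, and 7791 and 8595 in WT. All G2 values were below all control values, and SCR and WT overlapped. The log2 differences of G2 were -0.49 ± 0.06 against SCR (adjusted p = 3.2e-05, limma) and -0.49 ± 0.07 against WT (adjusted p = 7.1e-05, limma). Both were folds of about 1.40, under the threshold of 1.5.

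DCX, doublecortin, which binds microtubules in migrating and newly born neurons, had normalized counts of 579, 521 and 554 in G2, 1419.6, 1391 and 1342 in SCR, and 540.1 and 1066 in WT. The 2 WT libraries differed by a factor of nearly 2 and 1 of them lay among the G2 values. DCX was lower in G2 than in SCR, with a log2 difference of -1.33 ± 0.18 (fold 2.51, adjusted p = 7.1e-05, limma). The value against WT was -0.46 ± 0.20 (adjusted p = 0.075, limma) and rested on the WT library used, at -0.95 without WT replicate 1 and 0.03 without WT replicate 2. SCR was above WT by 0.87 ± 0.20 (adjusted p = 0.006, limma), with 0.38 and 1.36 in the same leave-outs, in each of which the lone WT library was taken to vary like the other lines.

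STMN2, stathmin-2, which binds free tubulin in growth cones, had normalized counts of 168076, 165798 and 162678 in G2, 167725, 173414 and 169593 in SCR, and 115831 and 117734 in WT. The G2 and SCR values overlapped, and both lines were above WT. The log2 difference of G2 from SCR was -0.04 ± 0.05 (adjusted p = 0.49, limma). Against WT, the differences were 0.50 ± 0.05 for G2 (adjusted p = 5.5e-06, limma) and 0.54 ± 0.05 for SCR (adjusted p = 1.2e-05, limma), which fell short of the fold threshold and were not called, but both passed it with equal totals, at 0.69 and 0.82.

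GAP43 had normalized counts of 32129, 33234 and 32270.2 in G2, 4487, 4402 and 4009 in SCR, and 5118 and 4465 in WT. The G2 libraries were close to each other and far above all controls, among which SCR and WT overlapped. The log2 differences were 2.92 ± 0.06 against SCR (fold 7.58, adjusted p = 1.6e-11, limma) and 2.77 ± 0.07 against WT (fold 6.81, adjusted p = 4.3e-11, limma), and -0.15 ± 0.07 between SCR and WT (adjusted p = 0.11, limma).

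**Figure D4:**
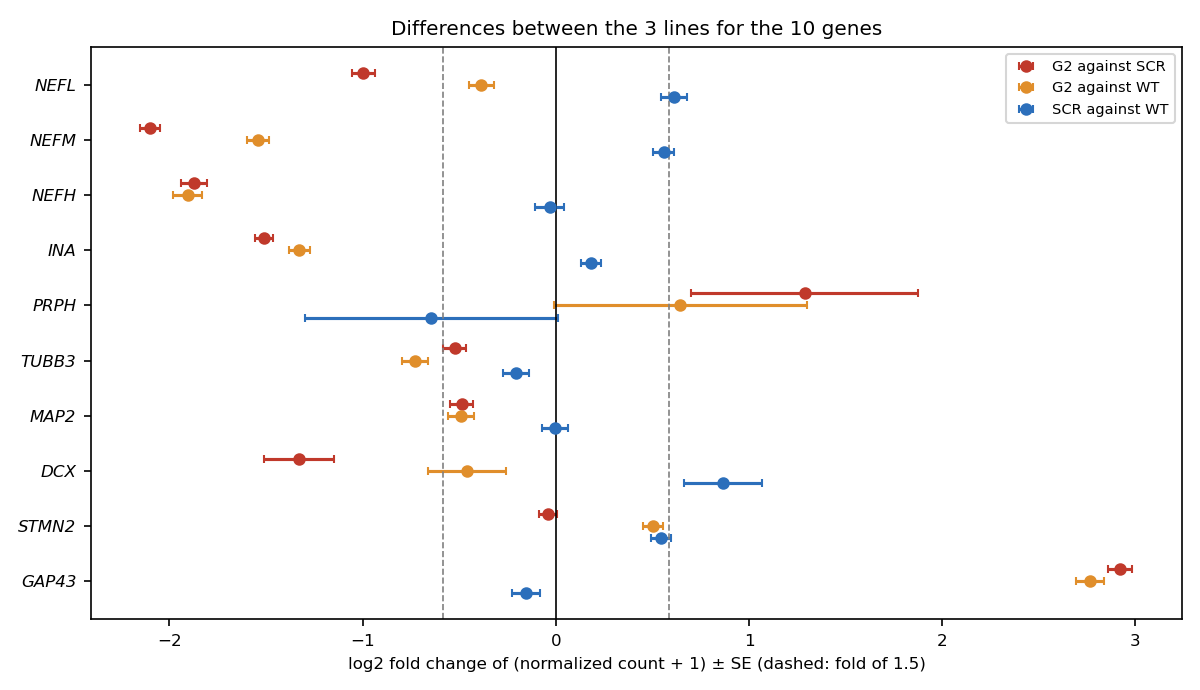
Log2 fold changes of normalized count + 1 with their SE for the 10 genes, in G2 against SCR (red), G2 against WT (orange) and SCR against WT (blue), with dashed lines at a fold of 1.5. The points of NEFM, NEFH and INA lie between -2.10 and -1.33 in both G2 comparisons, GAP43 lies at 2.92 and 2.77, and in SCR against WT only NEFL and DCX lie past the right dashed line.

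On the per-length scale the order of the 10 genes differed between the lines. STMN2 had the highest level in each, at 81056 ± 1327 normalized counts per kb in G2, 83371 ± 1420 in SCR and 57190 ± 659 in WT (SD). GAP43 was the second in G2 at 17119.6 ± 316, and the seventh in SCR at 2262 ± 134 and in WT at 2520.5 ± 243. TUBB3 was the third in G2 at 11409.7 ± 468, ahead of NEFL at 8609 ± 706. In SCR, NEFL at 17131 ± 235 and TUBB3 at 16403 ± 953 overlapped and could not be ordered on merged exon lengths. In WT the same held for NEFH at 2671 ± 168 and GAP43. INA was above NEFM in G2, at 2764 ± 79.0 against 2152 ± 36.4, and in WT, while in SCR NEFM at 9232 ± 243 was above INA at 7872 ± 197. The order in WT depended on the length used. With the longest transcripts as lengths, NEFM and INA overlapped in WT, at mean shares of 24.1% and 24.0% of the neuronal filament sum. MAP2, DCX and PRPH were lowest in that order in all 3 lines, although the merged exons of MAP2 and DCX include long untranslated parts that lower the level per length. All these ranks used merged exon lengths. For TUBB3 this length was 7421 bases against 5062 for the longest transcript. Its order beside NEFL and GAP43 may therefore differ with the length used.

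The genes whose log2 values followed each member most closely over the 8 libraries, among 12587 named genes averaging 100 or more, were SPATS2L for GAP43 (Pearson r = 0.9995), SNAP25 for NEFM (0.9980), GNG4 for NEFH (0.9983), MYC for INA (0.9993), MYT1 for NEFL (0.9935), CGREF1 for TUBB3 (0.9993), ZBED4 for MAP2 (0.9915), DENND3 for STMN2 (0.9925), MBTD1 for DCX (0.9898) and UBE3D for PRPH (0.9591). The 8 libraries fall into 3 lines, so such values were common for most members: 1832 genes had an r over 0.9 with GAP43, 939 with NEFM and 283 with DCX. With PRPH, 4 genes did.

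Genes close to the members on the chromosomes were described in the same fits. Within 2 Mb, the median log2 fold change of the neighbors in G2/SCR was 0.14 around GAP43 (13 tested genes), -0.03 around NEFH (59), -0.09 around INA (50) and 0.13 around MAP2 (9), against member values of 2.92, -1.87, -1.51 and -0.49. NEFL and NEFM lie 31.7 kb apart on chromosome 8, and their neighbors had a median of -0.35 in G2/SCR, 0.23 in G2/WT and 0.50 in SCR/WT (33 genes), where NEFL had -0.996, -0.39 and 0.61, and NEFM -2.10, -1.54 and 0.56. These medians depended on the window: they were 0.16, -0.28 and -0.01 within 1 Mb (7 genes) and -0.08, 0.22 and 0.16 within 5 Mb. Around STMN2, on the same chromosome, the 20 neighbors had medians of 0.75 against SCR and 0.80 against WT, whereas STMN2 itself was at -0.04 and 0.50. Of these neighbors 11 and 10 were called higher, beside 15.1% and 17.7% of all tested genes. Around TUBB3 the 63 neighbors had a median of -0.30 and -0.41, beside TUBB3 at -0.52 and -0.73. Of them 12 and 20 were called lower, beside 11.8% and 12.2% of all tested genes. The neighbors of PRPH (77 genes) and DCX (15) had medians of 0.15 and 0.04 in G2/SCR. The part of the surrounding chromosome in these values was not tested.

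Genes with related roles, the 10 members left out, were counted as 4 lists in the same fits. Of 9 tested intermediate filament genes outside the neuronal set, 4 were called higher in G2/SCR (VIM, NES, DES and LMNA) and 5 in G2/WT, where 15.1% and 17.7% of all tested genes were, and none was called lower in limma in either. Without the fold threshold, 0 were lower in G2/SCR and 2 in G2/WT, LMNB1 and LMNB2 of the nuclear lamina, at an unadjusted p under 0.05, and DESeq2 and edgeR called 0 lower in G2/SCR. VIM was higher in G2 by 1.33 ± 0.06 (log2) against SCR and 1.86 ± 0.07 against WT, and LMNA, which codes for lamins A and C, by 0.995 ± 0.068 and 0.61 ± 0.08. The list's median was 0.61 in both. DES had means of 21.1 in G2, 3.39 in SCR and 3.72 in WT, and an adjusted p of 0.054 against SCR in limma. Its mean over all libraries was 10.1, so it passed the filter on low values only through G2. Its calls in both comparisons therefore add no support.

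Of 42 microtubule-associated and transport genes, 5 were called higher and 10 lower in G2/SCR, where 15.1% and 11.8% of all genes were. In G2/WT the counts were 7 and 5, close to the 17.7% and 12.2% of all genes. KIF1A, a kinesin that carries synaptic vesicle precursors, fell in G2, with log2 differences of -1.35 ± 0.07 and -1.54 ± 0.08 against SCR and WT. KIF5C, a neuronal heavy chain of conventional kinesin, had values of -1.33 ± 0.09 and -1.24 ± 0.10. DST, a spectraplakin that links filament systems, was higher by 1.07 ± 0.12 and 1.14 ± 0.13, and VASH1, which removes the terminal tyrosine of α-tubulin, by 1.06 ± 0.08 and 1.44 ± 0.09. The medians were -0.12 and 0.13.

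Of 43 tested growth cone and neurite outgrowth genes, 8 were called higher and 11 lower in G2/SCR and 11 and 9 in G2/WT, with medians of -0.15 and 0.00. Over all genes these shares were 15.1% and 11.8% in G2/SCR and 17.7% and 12.2% in G2/WT, so the count called higher in G2/SCR was near that of all genes. The genes called higher in both comparisons included SNCG, which passed the filter on low values only through G2. Its means were 37.6 in G2, 0 in SCR and 4.96 in WT, so its calls add no support. BASP1, like GAP43 a membrane-attached growth cone protein, was higher in G2 by 1.49 ± 0.07 and 1.20 ± 0.08 (log2) against SCR and WT, at 14540.2 ± 1351 normalized counts in G2, 5177 ± 245 in SCR and 6323 ± 101 in WT. SPTBN4, the βIV-spectrin of the axon initial segment, had values of -1.52 ± 0.14 and -1.24 ± 0.16. The adhesion molecule CNTN1 had -1.31 ± 0.09 and -1.42 ± 0.11, and CRMP1, which relays semaphorin signals to microtubules, had -1.28 ± 0.05 and -1.18 ± 0.05. Of 16 tested tubulin genes other than TUBB3, 1 was called higher (TUBB6) and 1 lower (TUBB4A) in G2/SCR, and 1 and 2 in G2/WT, near or under the same shares.

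**Figure D5:**
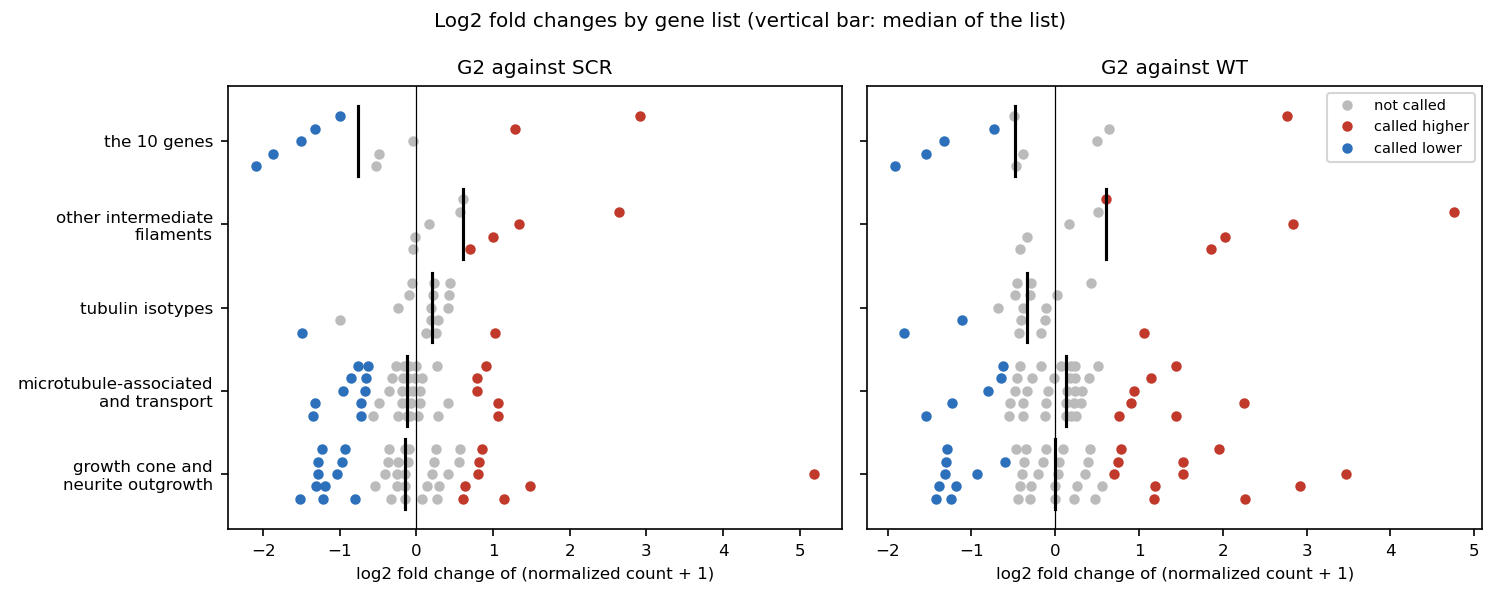
Log2 fold changes of normalized count + 1 in G2 against SCR (left) and G2 against WT (right) for the 10 genes and 4 gene lists, with 1 point per gene, colored by its call, and a black bar at the list's median. The median of the 10 genes lies at -0.76 and -0.48, that of the other intermediate filaments at 0.61 in both, and the point far to the right in the lowest row of the left panel is SNCG, which was at 0 in all SCR libraries, so that its position depends on the pseudocount.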

How the data were processed

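Polyadenylated RNA of 8 SH-SY5Y libraries (3 G2, 3 SCR, 2 WT, assigned by their labels) was sequenced with a stranded kit. The authors aligned the read pairs to hg38 (STAR), counted them per gene with featureCounts (Subread 1.5.0) on the FAST DB annotation and normalized them with DESeq2. The values they deposited are a signal, the count of a gene divided by a size factor of its library. Columns of fold changes and p-values of the authors were not used. Each library's values were whole multiples of 1 step (100.0% within 0.1), and the totals recovered with it are given as the depth. Of the recovered counts up to 60, however, 67.1% to 71.5% per library were multiples of 3, so 1 recovered count need not be 1 read pair, and the depth may be overstated, as may the precision of the count models. The step of WT replicate 2 is too near 1 to check this, so count models (DESeq2 1.42.0, edgeR 4.0.16) were limited to recovered counts of G2/SCR.

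limma 3.58.1 in R 4.3.3 (lmFit, eBayes with trend) was fitted with a mean per line to log2(normalized count + 1) of every gene averaging 10 or more across the libraries. It was tested on simulated data, where 90.0% of genes with a fold of 2 and 42.8% with a fold of 1.5 were called in G2/SCR over 18947 genes. Of unchanged genes, 1.50% were called. Genes simulated at a fold of 1.5 sit on the threshold itself, so many must miss it. The simulation took its spread from the recovered counts, so the 90.0% may be too high. Exact permutation tests used scipy 1.17.1 over 56 groupings: 10 for the members, 5 for the filament shares and 7 for the β-tubulin shares. The members and lists were chosen with earlier results of these data known. Beside the members, the text names all pool genes, PRPF40B and the tested genes within 500 kb of it, cell type checks (TH, VIM, FN1, SOX10; 1 more is not reported here), for each member the gene of closest pattern, and per list the 4 genes with the largest change in G2/SCR among those with a mean of at least 100 called the same way in both G2 comparisons. DES, LMNB1, LMNB2, GATA3, TWIST1, TWIST2, PRRX1, WWTR1, SNCG and RHEBL1 were named after their values were seen. Gene positions are those of the deposited table on hg38, and lengths those of GENCODE 44 on the same build. The entry of NEFH also starts upstream of GENCODE's. Promoter motifs were searched as plain letters on both strands. The alternatives were other pseudocounts, filters, scalings, thresholds, tools, blocks, lengths, pools and windows, and leaving out each library.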

Additional observations from a re-analysis of the deposited data

How the results depend on the processing

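Over 1030 alternative values, 939 kept their direction and their side of the threshold, or moved by less than the spread between libraries. GAP43, NEFH, INA and MAP2 kept their calls in every comparison under every alternative run. In G2/SCR the number of members called higher, 2 as reported, was 1 with a pseudocount of 0.5, a mean of at least 100, equal totals, the upper quartile, a fit on the compared lines and the adjusted p, which is PRPH losing its call or its place. It was 1 to 2 when each library was left out. The replicate numbers of titles and library names did not pair the libraries, since the correlations of same-numbered libraries ran from -0.032 to 0.046, and with either replicate block the number was 1; with the block by library name, members called higher in SCR/WT numbered 1, as NEFL missed the fold at 0.54, and neither block changed another call of a member. In SCR/WT that number was 4 with equal totals and with the upper quartile, 0 at a fold of 2, and 1 to 3 when each library was left out. With equal totals, 2 members were called higher in G2/WT. At a mean of at least 100, all called genes numbered 3088, 3633 and 1723 in G2/SCR, G2/WT and SCR/WT, and at a fold of 2 they numbered 2951, 3176 and 1491, because fewer genes can pass either, beside 5088, 5657 and 3097 as reported; DESeq2 and edgeR called 4973 and 5093 in G2/SCR. With equal totals, tubulin genes numbered 2 called higher in G2/WT and 2 higher and 1 lower in SCR/WT, and microtubule-associated genes 3 lower in G2/WT and 14 higher in SCR/WT.

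In the pool with VIM and NES the share of NEFL reversed, to -15.2 points, and that of PRPH was 0.00697 points (exact permutation p = 0.179). Leaving out each library, where no exact test can pass the threshold, gave -3.58 to -2.67 points for NEFH, -4.14 to -2.86 for INA and -2.30 to -1.79 for TUBB3. The median of neighbors around NEFL and NEFM was 0.16 within 1 Mb and -0.08 within 5 Mb in G2/SCR. Depth limits PRPH, with 7 to 33 counts per library.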

Other observations

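PRPF40B lies 325 kb beyond PRPH on chromosome 12. Of the 24 other genes tested within 500 kb of PRPF40B, 5 were called higher and 6 lower in G2/SCR, with a median log2 fold change of 0.02, and 3 and 3 in G2/WT, with a median of -0.35. The 5 include PRPH, whose call was lost in 12 of its 22 alternative settings. The 6 include RHEBL1, whose entry overlaps that of PRPH. Over all tested genes, 15.1% were called higher and 11.8% lower in G2/SCR, and 17.7% and 12.2% in G2/WT, so the counts in G2/WT were near or under those shares. The genes called higher in both were FAM186B at 3.06 and 3.40, DNAJC22 at 2.63 and 2.52, and C1QL4 at 1.84 and 1.59, and those called lower in both were NCKAP5L at -1.07 and -0.78, FAIM2 at -0.87 and -0.97, and ASIC1 at -0.76 and -0.87. The α-tubulin genes of this stretch were called in neither comparison, with TUBA1A at 0.23 and -0.12 and TUBA1C at 0.43 and -0.45, while the adjusted p of TUBA1C was 5.8e-05 and 8.9e-05 (limma).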
